A study of Homo sapiens with 8 samples.

Results

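The 40 genes described here act in G2 phase and mitosis, the part of the cell cycle in which duplicated chromosomes are condensed, attached to the spindle, separated and divided between the daughter cells. They were taken by symbol from a fixed list, and all 40 were found among the 30755 gene symbols of the RNA-seq table. The cells were ESO26, an established line of oesophageal adenocarcinoma cells. The comparison was between 2 libraries from cells in which HNF4A, a transcription factor of endodermal tissues, had been knocked down with a small interfering RNA (siHNF4A) and 2 libraries from control cells. The labels do not say whether the control cells received a non-targeting siRNA, when cells were harvested, or whether libraries of a group came from separate cultures, so p-values measure the spread between these libraries, which may be technical. The ChIP-seq and 4C samples of the series were not used.

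Entry into mitosis is driven by CDK1 bound to cyclin A or cyclin B, which the CDC25 phosphatases switch on and to which Polo-like and Aurora kinases add their activity. The spindle assembly checkpoint then holds the anaphase-promoting complex (APC/C) back until every kinetochore is attached, after which securin and cyclin B are destroyed. Most of these genes are transcribed in a wave late in the cell cycle, which the MuvB complex with B-MYB or FOXM1, and NF-Y at CCAAT boxes, are known to drive through promoter elements that include the cell cycle genes homology region (CHR). In a growing cell line their mRNA level in bulk RNA follows both the share of cells in G2 and mitosis and the RNA per cell, and the 2 cannot be told apart here.

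The promoters show the sequence elements that these genes share. RefSeq promoters (GRCh38.p14, from 250 bases before to 50 bases after each transcription start) were matched for 33 of the 40 genes. FOXM1, UBE2C, BUB3, TTK, AURKA, TPX2 and BIRC5 had no entry in the table that was used. The windows below, read 5′ to 3′ on the strand of the gene, run from 110 bases before to 30 bases after a start. Capitals mark CHR letters (TTTGAA or TTCGAA) and the CCAAT box (CCAAT) on either strand, so that ATTGG is a CCAAT box and TTCAAA a CHR on the other strand. The first set holds the 7 genes with a matched promoter that fell after the knockdown.
CCNA2: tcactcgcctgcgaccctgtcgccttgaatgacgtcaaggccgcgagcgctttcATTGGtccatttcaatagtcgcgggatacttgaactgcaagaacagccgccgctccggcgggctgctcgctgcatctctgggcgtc
CDK1: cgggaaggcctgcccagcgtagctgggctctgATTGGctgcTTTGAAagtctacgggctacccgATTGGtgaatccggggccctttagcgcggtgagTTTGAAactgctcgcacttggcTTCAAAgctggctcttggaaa
CDC25B: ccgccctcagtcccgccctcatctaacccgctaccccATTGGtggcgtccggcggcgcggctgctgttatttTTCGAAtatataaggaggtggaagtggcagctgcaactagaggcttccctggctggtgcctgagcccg
MAD2L1: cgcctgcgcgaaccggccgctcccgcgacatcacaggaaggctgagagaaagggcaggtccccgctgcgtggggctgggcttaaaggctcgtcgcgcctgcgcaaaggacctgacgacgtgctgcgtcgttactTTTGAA
CDCA8: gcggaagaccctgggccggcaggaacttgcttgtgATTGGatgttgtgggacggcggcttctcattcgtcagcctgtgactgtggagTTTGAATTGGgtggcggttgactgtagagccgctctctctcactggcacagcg
SPC25: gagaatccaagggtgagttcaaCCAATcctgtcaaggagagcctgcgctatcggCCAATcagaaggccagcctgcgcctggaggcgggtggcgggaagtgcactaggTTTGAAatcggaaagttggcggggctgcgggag
MKI67: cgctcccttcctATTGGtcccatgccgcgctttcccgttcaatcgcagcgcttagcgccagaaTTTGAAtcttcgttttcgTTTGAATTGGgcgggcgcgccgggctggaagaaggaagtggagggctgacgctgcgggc
The windows lie at chr4:121823854-121823993 for CCNA2, chr10:60778368-60778507 for CDK1, chr20:3796200-3796339 for CDC25B, chr4:120066819-120066958 for MAD2L1, chr1:37692406-37692545 for CDCA8, chr2:168890401-168890540 for SPC25 and chr10:128126394-128126533 for MKI67, with CDK1, CDC25B and CDCA8 on the plus strand and CCNA2, MAD2L1, SPC25 and MKI67 on the minus strand of GRCh38.p14. CDK1 has 2 and CDC25B has 4 listed starts, and the start with a CHR nearest to it is shown. The searched CHR letters are present in 6 of the 7 windows, whereas in the CCNA2 window only a CCAAT box is marked. Other forms of the CHR were not searched, so a window without these letters may still hold one. Counts of a CHR below refer to these letters. Adjoining CHR and CCAAT letters overlap in CDCA8 and in MKI67. Next come 3 genes that did not pass the test and whose fold change was above 0, shown because their windows hold CHR letters too, in CCNB2 and PRC1 with a CCAAT box and in BUB1B without one.
CCNB2: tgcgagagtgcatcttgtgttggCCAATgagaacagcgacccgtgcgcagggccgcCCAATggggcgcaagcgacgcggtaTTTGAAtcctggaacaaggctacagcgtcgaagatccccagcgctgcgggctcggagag
BUB1B: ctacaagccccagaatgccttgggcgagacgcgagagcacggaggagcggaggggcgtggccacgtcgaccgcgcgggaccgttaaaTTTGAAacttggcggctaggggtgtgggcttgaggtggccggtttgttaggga
PRC1: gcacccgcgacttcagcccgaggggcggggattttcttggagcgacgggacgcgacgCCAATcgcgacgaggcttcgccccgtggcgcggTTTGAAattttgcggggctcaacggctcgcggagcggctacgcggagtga
These lie at chr15:59105036-59105175 for CCNB2, chr15:40160959-40161098 for BUB1B and chr15:90994506-90994645 for PRC1, with CCNB2 and BUB1B on the plus strand and PRC1 on the minus strand.

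Of the 33 genes with a promoter, 26 held a CHR in at least 1 of their promoters (78.8%), against 19.5% of the 27305 genes in the promoter table. A CCAAT box was present in 25 of them (75.8%), against 39.7% of all genes, and both elements in 19 (57.6%), against 7.85%. Counted over single promoters, 29 of the 45 promoters of these genes held a CHR (64.4%), against 16.4% of all 35116 promoters. The 39 CHR matches, counted for each listed start, began within 60 bases of the start in 28 cases (71.8%), against 29.8% of all CHR matches in the table. The letters CAAAGTCCA, a form of the HNF4 motif, were in none of the 45 promoters and in 0.384% of all promoters. With letters this rare, 45 promoters are too few to show an absence. Other forms of the HNF4 motif and sequence outside these windows were not searched. The E2F-type letters TTCCCGCC were in 3 of the 45 promoters (6.67%), against 3.16% of all. A match describes letters in these windows and is neither a bound site nor a cause of a change.

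**Figure D1:**
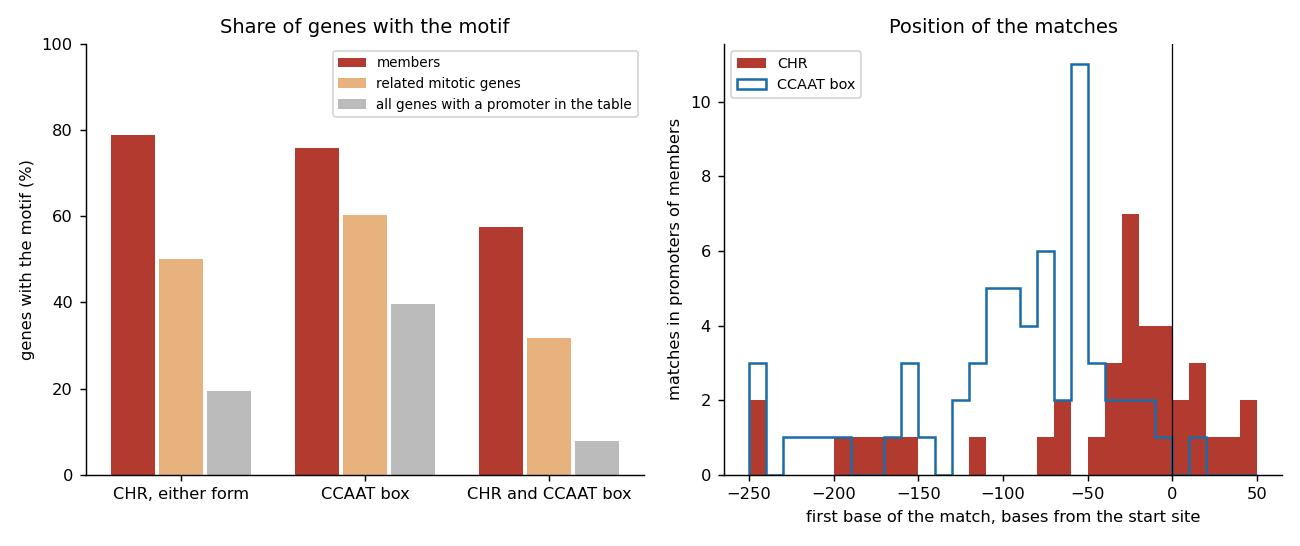
Left, share of genes (percent) whose RefSeq promoter holds a CHR, a CCAAT box or both, for the 33 mitosis and G2-M genes, 88 related mitotic genes and all 27305 genes of the promoter table; right, number of matches in promoters of the mitosis and G2-M genes against the distance of their first base from the start site, in bins of 10 bases. CHR matches gather around the start, and CCAAT boxes lie mostly upstream of it.

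The left panel of the plot of promoter elements sets these shares side by side, and the right panel shows where the matches lie.

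The knockdown itself was checked first. HNF4A had 4129 and 3937 normalized counts in the controls against 1140 and 932 in the knockdown, so that 25.7% of the control mean remained. Normalized counts summed to between 17912510 and 18613690 per library, and their absolute read depth is unknown. The knockdown libraries listed fewer genes at 0 (4260 and 4362) than the control libraries did (5479 and 5640). Epithelial markers were high in every library: the sum of 6 of 6 listed (EPCAM, KRT8, KRT18, KRT19, CDH1 and CLDN4) was 88053 and 93187 in the controls against 79914 and 80053 in the knockdown. Of these markers EPCAM, KRT8, KRT18 and CLDN4 fell, by between 0.29 and 0.51 on the log2 scale, KRT19 rose by 0.22 (adjusted p = 0.0192 in limma), and CDH1 was not called. Of 10 fibroblast, endothelial and blood markers 7 were matched, with a sum of 273 and 198 in the controls against 315 and 338 in the knockdown. In this list the leukocyte marker PTPRC was at 0 in 1 library and at most at 2.05, and VWF rose from 7.62 ± 1.33 to 42.0 ± 7.82 (SD, n = 2; adjusted p = 0.0054 in limma). COL1A1 had 179 and 108 in the controls against 202 and 212 in the knockdown, and was not called (adjusted p = 0.128 in limma). COL1A2, PDGFRB, DCN and CD68 overlapped between the groups. The part of all these markers in the results below was not tested.

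More of the 40 genes fell than rose after the knockdown, and most of the single changes were small. A gene was called when its adjusted p was under 0.05 in limma, over the 15577 genes whose mean normalized count reached 10. By this rule 9 of the 40 fell (22.5%) and 1 rose (2.50%). The background was 8.11% of all tested genes lower and 6.02% higher. Among the 10918 tested genes with a mean of at least 100, to which all 40 belong, 11.1% were lower and 7.51% higher. SPC25, FOXM1, AURKA, MAD2L1, CDC25B, CDK1, CCNA2, CDCA8 and MKI67 fell, by between 0.20 for MKI67 and 0.58 for SPC25 on the log2 scale, and BIRC5 rose by 0.36.

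The calls were also counted by promoter element. Among all tested genes 8.11% fell, and among those with a mean of at least 100 it was 11.1%. Of the 26 genes with the searched CHR letters 6 fell (23.1%), with a median log2 fold change of -0.088. Of the 7 genes without these letters 1 fell (14.3%), with a median of -0.14. Of the 25 genes with a CCAAT box 7 fell (28%), with a median of -0.13, and of the 8 others 0 fell, with a median of -0.056. Of the 19 genes with both elements 6 fell (31.6%), with a median of -0.094, and of the 14 others 1 fell (7.14%), with a median of -0.080. The 3 splits divide the same 33 genes, the shares differ by few genes, and they are a description without a test of the difference. They leave out FOXM1 and AURKA, which fell, and BIRC5, which rose, because these had no matched promoter. The share called among all genes with the same letters was not counted.

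Across the 40 genes the median change was -0.091 on the log2 scale, against -0.0073 over all tested genes and -0.034 over those with a mean of at least 100. It was -0.055 after quantile normalization. Both knockdown libraries lay below both controls for 22 of the 40 genes (55.0%), against 30.1% of all tested genes. They lay above both for 5 (12.5%), against 26.9%, so that the groups were separate for 27 (67.5%), against 57.0% of all tested genes. Of the 105 other mitotic genes described below, 52.4% lay below and 17.1% above, so this pattern was not particular to the 40. These shares were not computed for tested genes with a mean of at least 100. The number of genes that fell was smaller when a knockdown library was left out, at 3 without siHNF4A replicate 1 and 2 without siHNF4A replicate 2. Leaving out control replicate 2 gave 6, and leaving out control replicate 1 gave 9. With all genes above 0 in the test it was 1, and without the trend between variance and level no gene was called, although 7 of the 40 were then lower and 1 higher at an unadjusted p under 0.05. The 40 genes together made up 0.611% and 0.591% of the normalized counts in the controls, against 0.592% and 0.575% in the knockdown, and these shares overlapped between the groups.

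**Figure D2:**
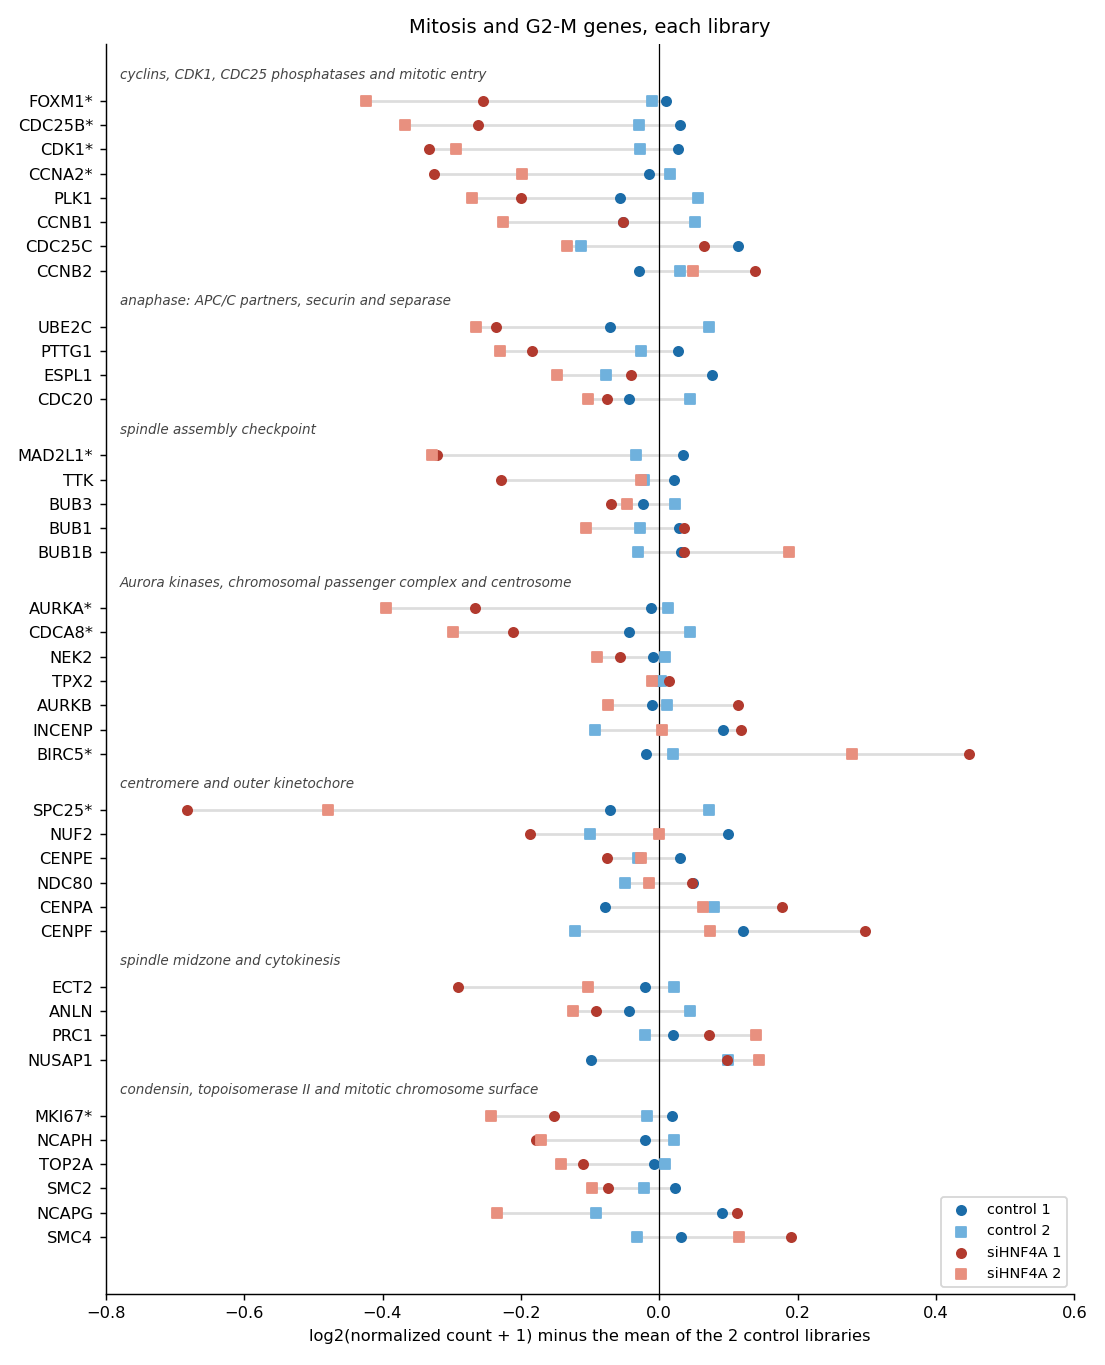
Each of the 40 genes in each library, as log2(normalized count + 1) minus the mean of the 2 control libraries (x axis); rows are genes grouped by role, points are single libraries and an asterisk marks a gene with an adjusted p under 0.05. The knockdown points of 22 genes lie to the left of both control points and those of 5 to the right.

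The plot of the 40 genes by library shows that the spread of the controls was often close in size to the change. The fold changes of the 40 genes were also plotted among those of all tested genes.

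**Figure D3:**
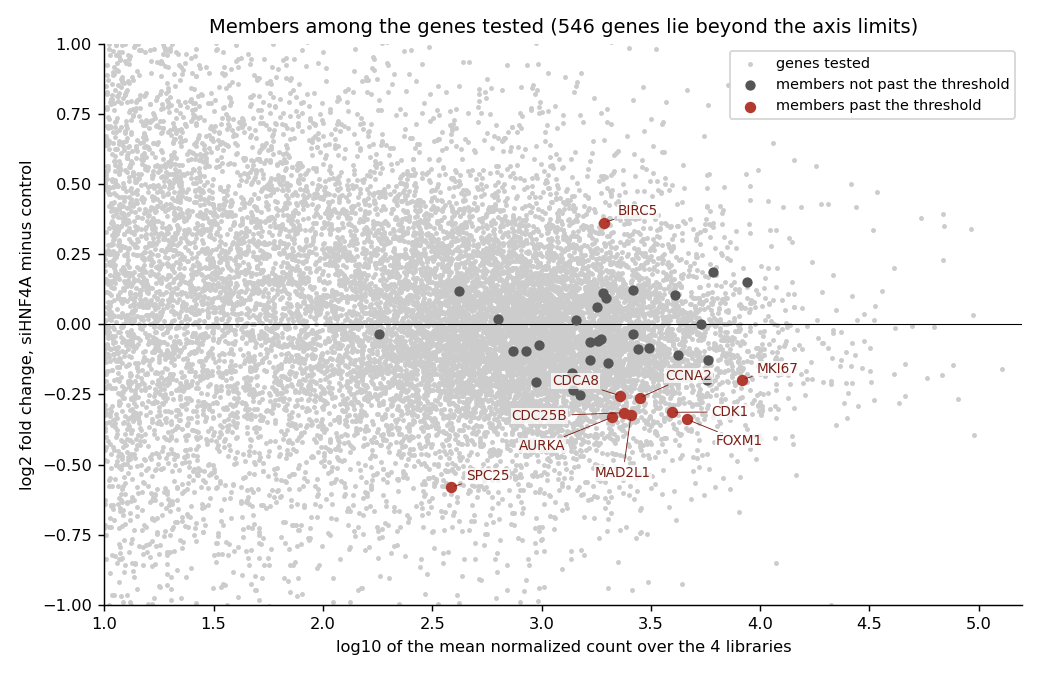
Log2 fold change (siHNF4A minus control, y axis) against the log10 of the mean normalized count (x axis) for all 15577 genes tested, with the 40 mitosis and G2-M genes in dark grey or, where past the threshold, in red with their names; 546 genes lie beyond the y limits. The 9 genes that fell lie between -0.58 and -0.20, and BIRC5 lies at 0.36.

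Of the 8 genes of mitotic entry 4 fell, and the group had the lowest median of the 7 roles, -0.25 on the log2 scale. CDK1, the kinase that drives cells into mitosis, had 4458 and 4291 normalized counts in the controls against 3471 and 3567 in the knockdown. Its groups lay far apart relative to their spread, and it fell by 0.31 on the log2 scale (SE 0.061, adjusted p = 0.0085 in limma). CCNA2, the cyclin A that partners CDK2 and then CDK1, had 3033 and 3097 in the controls against 2445 and 2672 in the knockdown. Both knockdown libraries were lower, with siHNF4A 1 the lowest, and it fell by 0.26 (SE 0.069, adjusted p = 0.034 in limma). CDC25B, the phosphatase that first activates CDK1 at the centrosome, had 2688 and 2579 in the controls against 2195 and 2040 in the knockdown. The groups did not overlap, and it fell by 0.32 (SE 0.071, adjusted p = 0.0167 in limma). FOXM1, the forkhead factor that activates many G2-M genes, had 5213 and 5140 in the controls against 4340 and 3858 in the knockdown. Its controls nearly coincided while the knockdown libraries were spread, and it fell by 0.34 (SE 0.069, adjusted p = 0.0106 in limma).

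The 4 other genes of mitotic entry were not called. PLK1, Polo-like kinase 1, had 1446 and 1563 in the controls against 1309 and 1246 in the knockdown, a log2 fold change of -0.24 (adjusted p = 0.0825 in limma). CCNB1, the main mitotic cyclin B, had 2037 and 2190 against 2036 and 1806, so that siHNF4A 1 nearly equalled control 1. Its paralog CCNB2 had 1865 and 1944 against 2095 and 1970, with both knockdown libraries above both controls. CDC25C, a further CDK1-activating phosphatase, overlapped between the groups, at 197 and 168 against 190 and 166. The log2 ratio of CCNB2 to CCNB1, set to a mean of 0 in the controls, was 0.022 and -0.022 there and 0.19 and 0.27 in the knockdown. This is a description of 2 genes that were not called, and with 2 libraries a group no exact two-sided permutation test can give a p below 0.333.

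The calls of these genes depended on single libraries. The call of CDK1 was lost without siHNF4A replicate 1 (adjusted p = 0.0627 in limma), and those of CDC25B and FOXM1 without siHNF4A replicate 2 (adjusted p = 0.120 and 0.0914 in limma). That of CCNA2 was lost without control replicate 2 (adjusted p = 0.0735), without siHNF4A replicate 1 (0.214) and without siHNF4A replicate 2 (0.0539 in limma). CCNA2 also lost its call after quantile normalization (adjusted p = 0.0558 in limma). In the fits without 1 library that lost a call, these genes stayed lower in the knockdown, by between 0.20 (CCNA2 without siHNF4A replicate 1) and 0.33 (CCNA2 without siHNF4A replicate 2) on the log2 scale.

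**Figure D4:**
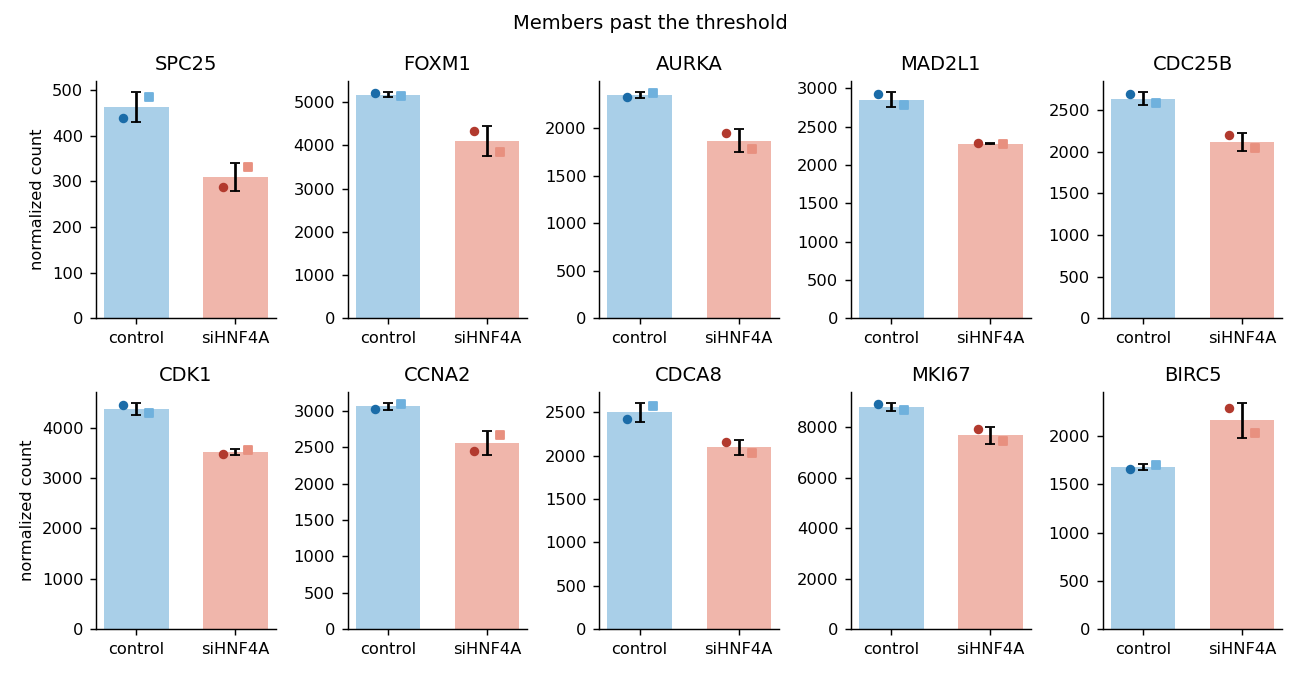
Normalized counts (y axis, from 0) of the 10 mitosis and G2-M genes with an adjusted p under 0.05, as bars for the mean of 2 libraries, error bars for the SD and points for single libraries. On the log2 scale SPC25 fell most of these, from 463 to 310, and BIRC5 rose from 1680 to 2163.

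None of the 4 genes of anaphase was called, and all 4 fold changes were below 0. UBE2C, the ubiquitin-conjugating enzyme of the APC/C, had 1553 and 1716 in the controls against 1387 and 1358 in the knockdown. That is a log2 fold change of -0.25 (adjusted p = 0.0673 in limma), and it was called without control replicate 1 (adjusted p = 0.0301 in limma, log2 fold change -0.32). It was also called when a mean of at least 50 was required (adjusted p = 0.0488 in limma). Leaving out control replicate 2 gave a log2 fold change of -0.18 (adjusted p = 0.283 in limma). PTTG1, securin, the inhibitor of separase, had 1033 and 996 against 893 and 865, a log2 fold change of -0.21 (adjusted p = 0.141 in limma). CDC20, the APC/C activator on which the checkpoint acts, was at 2758 and 2932 in the controls against 2699 and 2647 in the knockdown, a log2 fold change of -0.089. ESPL1, separase, overlapped between the groups, at 925 and 832 against 853 and 791.

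Of the 5 checkpoint genes 1 fell (20.0%), against 11.1% of tested genes with a mean of at least 100. MAD2L1, which forms the inhibitor of CDC20 at unattached kinetochores, had 2921 and 2787 normalized counts in the controls against 2283 and 2272 in the knockdown. The knockdown libraries lay close together and well below both controls, and it fell by 0.32 on the log2 scale (SE 0.066, adjusted p = 0.0107 in limma). Its call was lost without siHNF4A replicate 1 (adjusted p = 0.0558) or replicate 2 (0.0629 in limma), at a log2 fold change of -0.33 and -0.32. BUB3, a partner of BUB1 and BUBR1 in the checkpoint, was at 1816 and 1876 against 1759 and 1787, a log2 fold change of -0.058 (95% interval -0.22 to 0.099). The log2 ratio of MAD2L1 to BUB3 was 0.057 and -0.057 in the controls against -0.25 and -0.28 in the knockdown. TTK, the kinase MPS1 that starts the checkpoint signal, had 1766 and 1713 against 1484 and 1707, so that siHNF4A 1 alone was low. BUB1 overlapped between the groups, at 2710 and 2605 against 2725 and 2469. BUB1B, which encodes BUBR1, was at 1867 and 1787 against 1873 and 2080, with siHNF4A 2 alone high (log2 fold change 0.11, adjusted p = 0.388 in limma).

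Of the 7 genes of the Aurora kinases, the chromosomal passenger complex and the centrosome, 2 fell (28.6%), 1 rose (14.3%) and 4 were not called. Among tested genes with a mean of at least 100, 11.1% were lower and 7.51% higher. AURKA, the centrosomal Aurora kinase, had 2328 and 2368 normalized counts in the controls against 1951 and 1785 in the knockdown. The controls were close to each other and both knockdown libraries were lower, and it fell by 0.33 on the log2 scale (SE 0.073, adjusted p = 0.0158 in limma). TPX2, which binds and activates Aurora A on the spindle, was at 5345 and 5362 in the controls against 5404 and 5313 in the knockdown, a log2 fold change of 0.0015 (95% interval -0.12 to 0.13). The log2 ratio of AURKA to TPX2 was therefore -0.28 and -0.38 in the knockdown, against -0.010 and 0.010 in the controls. NEK2, a centrosome kinase, was at 990 and 1002 against 958 and 936, a log2 fold change of -0.073 (adjusted p = 0.610 in limma).

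The chromosomal passenger complex holds Aurora B, INCENP, borealin (CDCA8) and survivin (BIRC5), and corrects faulty spindle attachments. BIRC5 had 1657 and 1702 normalized counts in the controls against 2290 and 2037 in the knockdown. Both knockdown libraries were above both controls, and it rose by 0.36 on the log2 scale (SE 0.079, adjusted p = 0.0148 in limma), the only one of the 40 genes that was called higher. CDCA8 had 2423 and 2574 in the controls against 2156 and 2031 in the knockdown. The groups were separate, and it fell by 0.26 (SE 0.071, adjusted p = 0.0409 in limma). AURKB overlapped between the groups, at 625 and 634 against 681 and 598, as did INCENP, the scaffold, at 1872 and 1646 against 1906 and 1760. The log2 ratio of BIRC5 to the mean of its 3 partners was -0.032 and 0.032 in the controls against 0.44 and 0.40 in the knockdown. Within this complex 1 subunit rose, 1 fell and 2 were not called.

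The calls of AURKA, BIRC5 and CDCA8 also depended on single libraries. AURKA lost its call without siHNF4A replicate 2 (adjusted p = 0.117 in limma, log2 fold change -0.27), and BIRC5 without siHNF4A replicate 1 (adjusted p = 0.118 in limma, log2 fold change 0.28). CDCA8 lost its call without control replicate 2 (adjusted p = 0.144), without siHNF4A replicate 1 (0.0860) and without siHNF4A replicate 2 (0.216 in limma), and after quantile normalization (0.0671 in limma). Its log2 fold changes in these fits were -0.21, -0.30, -0.21 and -0.22, in the same order.

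**Figure D5:**
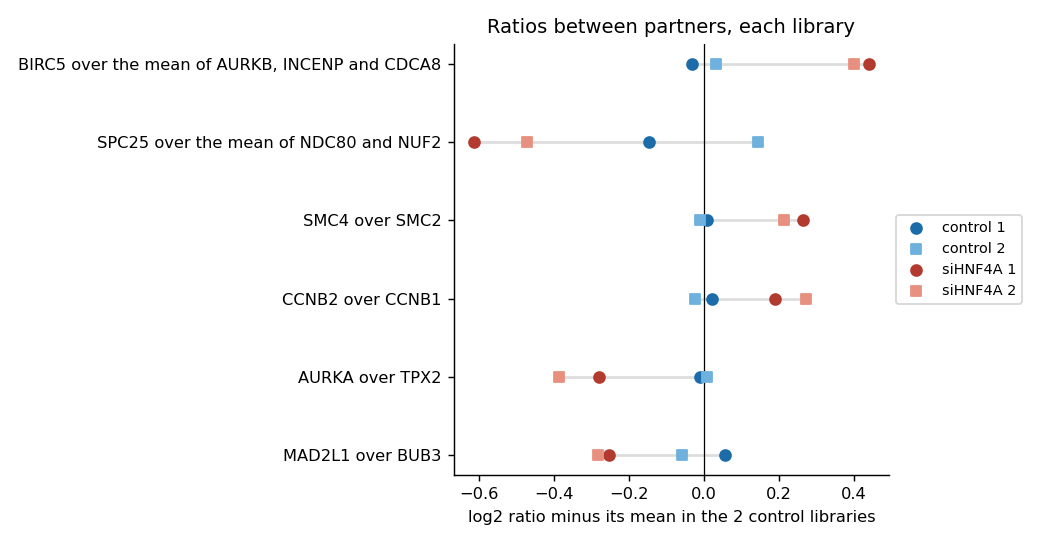
Log2 ratio between genes whose products act together (x axis, minus its mean in the 2 control libraries) for 6 pairs or groups (rows), with a point for each library. The control points lie between -0.15 and 0.15 and the knockdown points of each row all lie to one side of them, from -0.61 for SPC25 over NDC80 and NUF2 to 0.44 for BIRC5 over its partners.

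The ratios plotted by library were chosen after their values had been seen, and they are given as a description, without a test. A ratio within a library does not depend on a factor by which the library was scaled.

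Of the 6 centromere and kinetochore genes 1 fell (16.7%), against 11.1% of tested genes with a mean of at least 100. SPC25, a subunit of the NDC80 complex of the outer kinetochore, had 440 and 486 normalized counts in the controls against 288 and 332 in the knockdown. The groups were well separated, and it fell by 0.58 on the log2 scale (SE 0.13, adjusted p = 0.0148 in limma), to 66.9% of the control mean. Its call was lost without siHNF4A replicate 1 (adjusted p = 0.0928 in limma, log2 fold change -0.48). NDC80 and NUF2 form the arm of the same complex that grips microtubules. NDC80 was at 1472 and 1375 in the controls against 1470 and 1407 in the knockdown, and NUF2 at 821 and 715 against 674 and 766, so both overlapped. The log2 ratio of SPC25 to their mean was -0.15 and 0.15 in the controls against -0.61 and -0.47 in the knockdown.

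The remaining centromere genes overlapped between the groups as well. CENPA, the histone H3 variant that marks centromeres, was at 379 and 423 against 453 and 418. CENPE, the kinetochore motor that moves chromosomes to the spindle equator, was at 1950 and 1870 against 1812 and 1875. CENPF, a large protein of the kinetochore corona, had 6183 and 5224 against 6985 and 5980, with a log2 fold change of 0.19 (adjusted p = 0.218 in limma). CENPF was called higher when control replicate 1 was left out (log2 fold change 0.31, adjusted p = 0.0132 in limma). Leaving out control replicate 2 gave 0.064 on the log2 scale (adjusted p = 0.693 in limma), and leaving out siHNF4A replicate 1 gave 0.073 (adjusted p = 0.734 in limma), so that single libraries set its size.

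None of the 4 genes of the spindle midzone and cytokinesis was called. ECT2, which activates RhoA at the division plane, had 5986 and 6163 in the controls against 4965 and 5658 in the knockdown, a log2 fold change of -0.20 (adjusted p = 0.0938 in limma). ANLN, the anillin scaffold of the contractile ring, was at 4255 and 4524 against 4119 and 4023, a log2 fold change of -0.11. Both had separate groups with the knockdown lower. PRC1, which bundles midzone microtubules, was at 3984 and 3875 against 4128 and 4327, with the knockdown higher and a log2 fold change of 0.11 (adjusted p = 0.288 in limma). NUSAP1, a spindle microtubule binder, had 2341 and 2685 against 2683 and 2770, so that siHNF4A 1 nearly equalled control 2 and the groups overlapped.

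Of the 6 genes of mitotic chromosome structure only MKI67 fell (16.7%), against 11.1% of tested genes with a mean of at least 100. MKI67, which encodes the proliferation marker Ki-67 that coats mitotic chromosomes, had 8924 and 8707 normalized counts in the controls against 7934 and 7449 in the knockdown. Both knockdown libraries were lower, and it fell by 0.20 on the log2 scale (SE 0.056, adjusted p = 0.0435 in limma). This call held in 5 of 13 alternatives, the fewest among the 10 called genes. It was lost when any 1 library was left out (adjusted p between 0.0515 and 0.278 in limma, log2 fold change between -0.24 and -0.15), after quantile normalization (0.125) and after rescaling by the median ratio (0.0544 in limma). TOP2A, the topoisomerase that untangles sister DNA, was at 6013 and 6083 against 5603 and 5482, a log2 fold change of -0.13 (adjusted p = 0.164 in limma).

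None of the 4 condensin genes was called. SMC2 was at 3251 and 3150 in the controls against 3040 and 2990 in the knockdown, while SMC4, the ATPase with which it pairs, was at 8458 and 8092 against 9440 and 8963. Their log2 fold changes were -0.086 and 0.15, with adjusted p = 0.408 and 0.101 in limma. SMC4 was called higher after quantile normalization (log2 fold change 0.25, adjusted p = 0.0150 in limma). The log2 ratio of SMC4 to SMC2 was 0.0091 and -0.0091 in the controls against 0.26 and 0.21 in the knockdown. NCAPH, the kleisin of condensin I, had 1434 and 1476 against 1286 and 1293, a log2 fold change of -0.17 (adjusted p = 0.160 in limma). NCAPG, another condensin I subunit, overlapped between the groups, at 1812 and 1597 against 1840 and 1446.

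Over the 30 genes that were not called, log2 fold changes ran from -0.25 for UBE2C to 0.19 for CENPF, 19 of them below 0 and 11 above. Their 95% intervals reached from -0.43 to 0.39, which is the range of change that 2 libraries a group leave possible for these genes. Of the 40 genes 17 overlap another gene in the RefSeq annotation, among them CCNA2 (EXOSC9), FOXM1 (ITFG2 and RHNO1) and SPC25 (NOSTRIN). RefSeq also names a pseudogene after 13 of the 40, among them AURKA, MAD2L1 and MKI67. Whether the counting used the strand or how it shared such reads is not stated, so the values of these genes carry that uncertainty.

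Other mitotic genes were examined through a list of 105 symbols in 5 groups, and all 105 were tested. Of these 12 fell (11.4%) and 4 rose (3.81%), against the 8.11% and 6.02% of all tested genes and the 11.1% and 7.51% of those with a mean of at least 100, a minimum that all of the 105 except LIN37 reached. The share that fell was close to the latter background. Their median log2 fold change was -0.10. The count of 12 went to 5 without siHNF4A replicate 1 or replicate 2, to 7 without control replicate 2, to 16 without control replicate 1 and to 5 with all genes above 0 in the test. Among the 13 listed genes of the DREAM complex, B-MYB and NF-Y, 2 fell (15.4%), MYBL2 and E2F5, and none rose. MYBL2, which encodes B-MYB, had 2934 and 3164 in the controls against 2102 and 1897 in the knockdown, and fell by 0.61 on the log2 scale (SE 0.077, adjusted p = 0.0011 in limma). E2F5, a repressor-type E2F of the DREAM complex, had 1217 and 1313 against 699 and 792, and fell by 0.76 (SE 0.095, adjusted p = 0.0010 in limma). The values of both genes in the knockdown were well below those in the controls.

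Of the 28 kinetochore and checkpoint genes of this list 2 fell (7.14%), 3 rose (10.7%) and 23 were not called, against 8.11% lower and 6.02% higher among all tested genes. ZW10, which brings dynein to kinetochores, went from a normalized count of 659 ± 2.34 to one of 1126 ± 46.1 (SD, n = 2), and rose by 0.77 on the log2 scale (adjusted p = 6.83e-04 in limma). SKA2, a subunit of the SKA complex that couples kinetochores to microtubules, had 662 ± 18.1 and 1021 ± 7.84, and rose by 0.63 (adjusted p = 0.0019 in limma). SKA3, its partner, had 1735 ± 49.0 and 1251 ± 4.80, and fell by 0.47 (adjusted p = 0.0035 in limma). ZWINT, a kinetochore protein linked to ZW10, rose by 0.33 and KNTC1, a partner of ZW10 in the same complex, fell by 0.24 on the log2 scale. SKA2 shares its locus with MIR301A, MIR454 and 2 further RefSeq genes, and ZW10 overlaps 2 RefSeq genes.

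Of 17 APC/C genes 3 fell (17.6%) and none rose, against 8.11% lower and 6.02% higher among all tested genes. Among tested genes with a mean of at least 100, 11.1% were lower and 7.51% higher. The 3 were ANAPC5, ANAPC16 and CDC16, which fell by 0.40, 0.29 and 0.27 on the log2 scale. Of 14 further condensin and cohesin genes only SMC3 was called (7.14%), against 14.1% of all tested genes. SMC3, a ring subunit of cohesin, fell from 2270 ± 53.0 to 1793 ± 25.9 normalized counts (SD, n = 2). Of 33 further regulators and spindle genes 4 fell (12.1%) and 1 rose (3.03%). The share that fell was close to the 11.1% of tested genes with a mean of at least 100. PBK, KPNA2, CKS1B and LMNB1 fell, by between 0.26 for LMNB1 and 0.37 for PBK on the log2 scale. TACC3, which stabilises spindle fibres, had 3453 ± 118 in control cells against 4180 ± 143 with the knockdown, and rose by 0.28 (adjusted p = 0.0181 in limma). CKS1B and KPNA2 have 7 and 3 pseudogenes named after them in RefSeq.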

How the data were processed

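The RNA-seq table holds a normalized count per gene symbol for 4 libraries. The authors deposited it as a signal, already normalized, by a method not given in the sources used here. Values are fractional and not per length, so no count model was fitted and levels were not compared between genes. The submitters' processing notes name hg19, Bowtie, Bowtie2, Trim Galore, Picard and MACS2 without their roles. The columns were matched to samples by title. Read depth is unknown, which limits the precision that can be stated.

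The test was that of limma (version 3.58.1, under R 4.3.3), as lmFit followed by eBayes with a variance trend, on log2(normalized count + 1), without a block, for genes with a mean of at least 10 over the 4 libraries. Adjustment was by Benjamini and Hochberg over the 15577 genes tested, and a call is an adjusted p under 0.05. Fold changes on this scale are siHNF4A minus control and understate changes of low genes. The fit was checked on simulated data. Named genes are HNF4A, all 40 genes of the list, and up to 5 called genes with the smallest p of each related list. VWF and the partner ratios were chosen after their values were seen. The genes and lists were chosen with earlier results of these data known.

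Alternatives were the pseudocount (0.5 and 5), the filter (mean of at least 50, or none), quantile normalization, rescaling by the median ratio, no variance trend, robust eBayes, the replicate number as a block and leaving out each library. Motifs were searched as exact letters on both strands of RefSeq promoters of GRCh38.p14.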

Additional observations from a re-analysis of the deposited data

How the results depend on the processing

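The fall of HNF4A ranged from -2.11 to -1.82 over fits that left out 1 library. Without the variance trend HNF4A (log2 fold change -1.97, adjusted p = 0.0919 in limma) and all other genes lost their call: 0 of 15577 genes were called, with 3524 at an unadjusted p under 0.05, so 0 of the 40 genes fell and 0 rose, and 0 related genes fell and 0 rose. With no filter other than a value above 0 there were 726 calls in place of 2202, with 1 of the 40 genes lower and 0 higher, and 5 related genes lower. That setting tests 30247 genes. After quantile normalization 6 of the 40 fell and 2 rose, with a median of -0.055. Whole-series calls were 1155 lower and 1013 higher after median ratio rescaling, and 1026 lower and 1041 higher after quantile normalization, against 1264 and 938 as reported.

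Over the fits that left out 1 library, 1013 to 2449 genes were called, 2 to 9 of the 40 fell and 0 to 2 rose. The median of the 40 genes lay between -0.11 and -0.075, and 5 to 16 related genes fell and 3 to 5 rose. With all 4 libraries no gene of the 40 changed direction in any alternative. In fits without 1 library the sign changed for CDC25C (-0.15 to 0.080), TPX2 (-0.011 to 0.014), NUF2 (-0.19 to 0.0063), NCAPG (-0.24 to 0.11), INCENP (-0.031 to 0.15), NDC80 (-0.033 to 0.065), AURKB (-0.074 to 0.11) and BUB1 (-0.11 to 0.036), none of them called in any fit.

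The deviations of same-numbered libraries had a correlation of -0.019 across all 15577 genes and of 0.238 across the 40 genes. The labels give no shared culture, batch or day for a number, and the replicate number was not read as a pairing. With the replicate block 2428 genes were called, 9 of the 40 genes fell and 1 rose, and 10 of these 10 calls were also made without it.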
